A study of Mus musculus with 8 samples.

Results

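The transcription factors that build and keep the B-lymphoid programme were followed across all arrays of a c-jun knockout study: Pax5, Ebf1, Tcf3, Ikzf1, Ikzf3, Foxo1, Spib, Bach2, Lef1 and Irf8. The genes were chosen by name, and each is represented by its probe set with exactly 1 gene symbol and the highest mean signal. All 10 genes had such a probe set, among 19937 genes measured in the same way, and 0 of the 10 had more than 1. The study set 4 samples of B-lymphoid cells labelled c-jun knock out against 4 labelled wild type, all with the strain label SW129/C57BL/6J, on 1 Affymetrix MoGene 1.0 ST array each. In each genotype, replicates 3 and 4 have titles beginning with D (knockout) or F (wild type) and replicates 1 and 2 have titles beginning with RO, and these title series are called D/F and RO here. Within D/F the letter and the genotype coincide and cannot be told apart. The series title places the work in BCR-ABL induced lymphoid leukemia. The labels state neither whether the cells carried BCR-ABL nor how Jun was deleted. They also do not state whether samples of a genotype came from separate animals or cultures. A p-value therefore reflects only the variation between arrays left after genotype and title series, with variances moderated across genes. That variation may be technical.

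B-cell development is set up in steps. The E protein TCF3 and the early B-cell factor EBF1 open the programme together with FOXO1, and PAX5 then commits the cell by turning on B-lineage genes and silencing those of other lineages. The zinc-finger factors of the Ikaros family, the HMG-box factor LEF1, the BTB-bZIP repressor BACH2, the ETS factor SPIB and the interferon regulatory factor IRF8 act around these steps and control the passage from proliferating precursors to recombining and maturing cells. Loss of Pax5, Ebf1 or Ikzf1 function is a recurrent event in B-lineage leukemia. BACH2 has a direct link to the gene removed here, because it can occupy DNA elements that resemble those bound by AP-1, the dimer family to which c-JUN belongs.

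The labels were checked first. Jun had log2 signals of 6.99, 6.46, 7.02 and 6.97 in knockout replicates 1 to 4, against 8.82, 8.84, 10.55 and 8.77 in wild-type replicates 1 to 4, so the genotypes did not overlap (limma log2 difference -2.38, SE 0.32, adjusted p = 0.106 over all genes). The samples carried the signature of B-cell precursors: all 7 measured B-cell markers, among them Cd79a, Cd79b and the surrogate light chain genes Igll1 and Vpreb1, lay above the median signal of every array, with log2 signals from 10.5 to 14.21. Of markers of other cells, 7 of 12 for T and NK cells, 9 of 14 for myeloid cells, 5 of 9 for dendritic cells, 2 of 5 for erythroid cells and megakaryocytes and 5 of 11 for stromal and endothelial cells lay below the median of every array. Above the median of every array lay 1 T and NK, 1 myeloid, 4 dendritic, 2 erythroid and megakaryocyte and 5 stromal markers. Fn1, the fibronectin gene, ranged from 6.85 to 10.22 and Klrb1c, an NK-cell receptor gene, from 5.73 to 10.54 on the log2 scale. The myeloid markers summed to between 1535 and 2744 units of linear signal in knockout samples and between 1425 and 2612 in wild-type samples, and Lyz2, a lysozyme gene, ranged from 7.44 to 10.64 on the log2 scale. The T and NK markers summed to between 1041 and 1702 in knockout and between 1066 and 2988 in wild-type samples, and the dendritic markers to between 1086 and 1437 in knockout and between 1191 and 1727 in wild-type samples. The erythroid and megakaryocyte markers summed to between 2305 and 4027 in knockout and between 1781 and 3370 in wild-type samples, and the stromal markers to between 11780 and 13960 in knockout and between 11370 and 13040 in wild-type samples. Fewer cells of a type and less RNA per cell cannot be told apart in such bulk samples. Array medians ran from 6.93 to 7.42, and precision is limited by there being 4 arrays per genotype.

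All 10 factors were above the median signal of their array in all 8 samples, and 0 of the 10 passed between genotypes in limma after Benjamini-Hochberg adjustment over all genes, against 0.00502% of all genes (1 gene, Pja1, which encodes a ubiquitin ligase and is no member). At an unadjusted limma p under 0.05 the count was again 0 of 10, against 2.25% of all genes and 2.58% of the 11251 genes whose mean signal exceeded the mean array median, and the knockout and wild-type samples overlapped for each of the 10, against 1.29% of genes whose groups did not overlap. Their log2 differences, knockout minus wild type, ran from -0.60 for Spib to 0.18 for Bach2 with a median of 0.06, beside a median of -0.113 over all 19937 genes and -0.0505 over those 11251 brighter genes. Centring the arrays on their medians moved the shift of all genes to 0.0404. Relative to the median of all genes, 7 members lay above it and 3, Ikzf3, Spib and Irf8, below it. The count at an unadjusted limma p under 0.05 became 1 of 10 in some fits of fewer samples. It was Irf8 in the RO samples alone (unadjusted p = 0.0128, adjusted p = 0.397) and without knockout replicate 4 (unadjusted p = 0.041, adjusted p = 0.845). It was Spib in the D/F samples alone (unadjusted p = 0.00324, adjusted p = 0.31) and without knockout replicate 2 (unadjusted p = 0.0157, not passing the adjustment). The same count over all 19937 genes was 449 with every array, and it too changed with the fit. It was 2450 for the RO fit and 757 for the D/F fit. Leaving out knockout replicate 4 gave 520 genes, and leaving out knockout replicate 2 gave 257. What set the members apart from each other was their spread between samples of the same genotype, which was small for Tcf3 and Ikzf1 and large for Spib and Irf8.

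**Figure D1:**
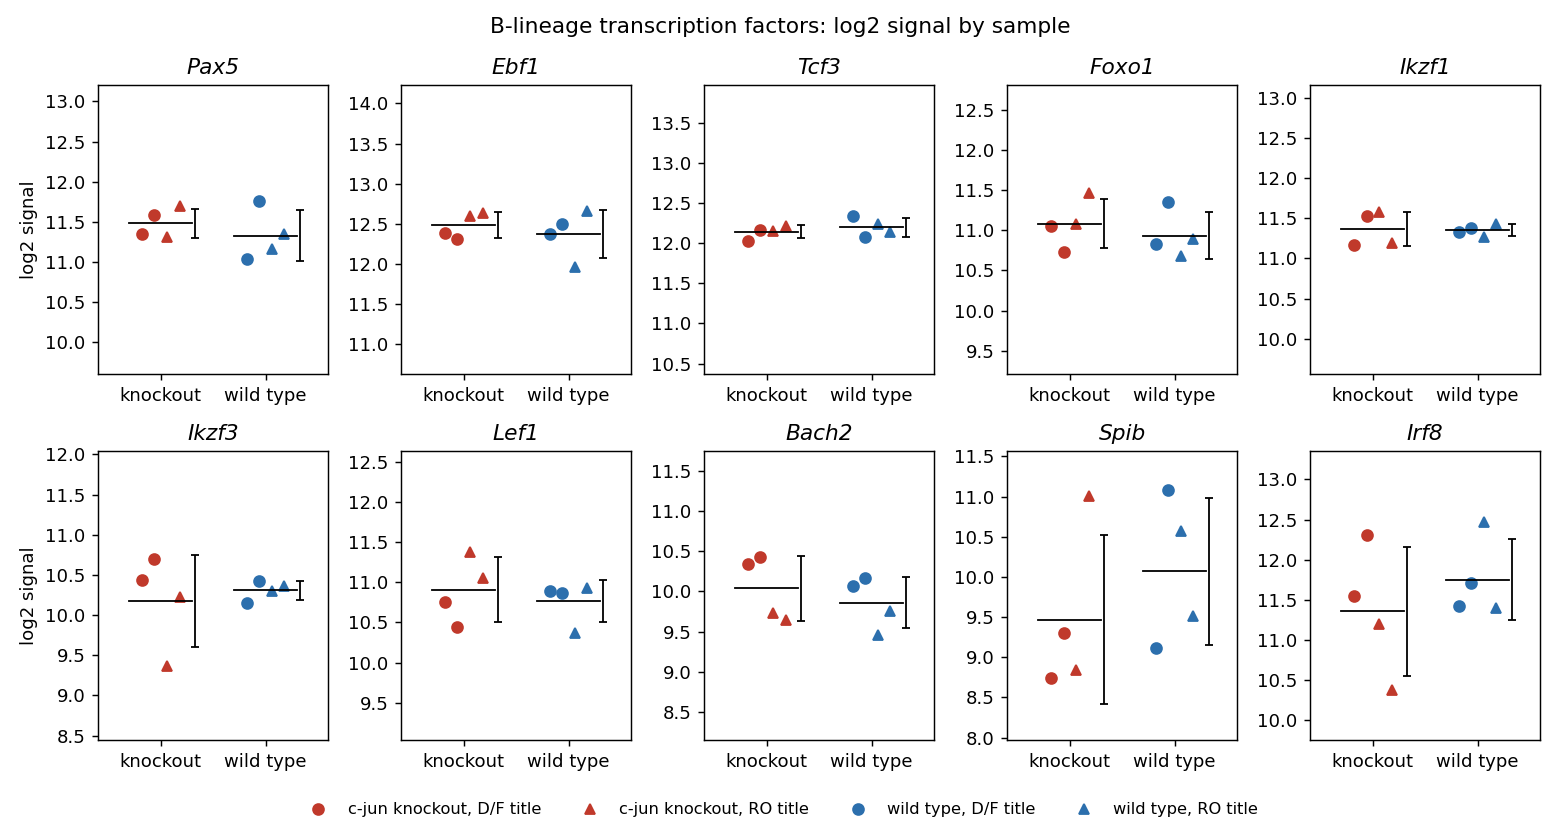
Log2 signal of each of the 10 factors in 4 c-jun knockout samples (red, left) and 4 wild-type samples (blue, right), with circles for D/F titles and triangles for RO titles; horizontal lines are group means, bars are 1 SD, and every panel spans the same number of log2 units. The genotypes overlap in all 10 panels, and the widest scatter within a genotype is in Spib and Irf8.

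Among the factors that specify the lineage, Tcf3, Ebf1 and Foxo1, Tcf3 varied least between samples. Tcf3, which encodes the E proteins E12 and E47 that bind E-box elements, had log2 signals of 12.15, 12.21, 12.02 and 12.17 in knockout replicates 1 to 4, against 12.23, 12.14, 12.34 and 12.07 in wild-type replicates 1 to 4. Its 8 samples spanned 0.31 log2 units, the narrowest span of the 10, and its genotype difference was -0.06 (SE 0.12, 95% interval -0.32 to 0.20, limma adjusted p = 0.903), and 0.10 once array medians were equalised. Ebf1, which acts with TCF3 on the first B-lineage genes, had 12.59, 12.64, 12.39 and 12.31 in knockout samples, against 11.97, 12.66, 12.37 and 12.50 in wild-type samples. Wild type replicate 1 was the lowest of the 8 and the other 7 lay between 12.31 and 12.66. The Ebf1 difference was 0.11 (SE 0.16, interval -0.24 to 0.46, adjusted p = 0.879), and it was -0.07 without wild type replicate 1. Foxo1, a forkhead factor restrained by PI3K and AKT signalling and an activator of Il7r and the Rag genes, had 11.08, 11.47, 11.05 and 10.73 in knockout samples, against 10.67, 10.89, 10.83 and 11.35 in wild-type samples. Its difference of 0.15 (SE 0.19, interval -0.27 to 0.57, adjusted p = 0.878) was 0.0019 without knockout replicate 2, the sample with its highest signal. In RO samples the Foxo1 difference was 0.49 and in D/F samples -0.20 (limma interaction -0.69, SE 0.33, unadjusted p = 0.0623, adjusted p = 0.716). Its 8 samples spanned 0.79 log2 units.

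Pax5, the commitment factor, had 11.31, 11.69, 11.35 and 11.58 in knockout replicates 1 to 4, against 11.16, 11.35, 11.04 and 11.76 in wild-type replicates 1 to 4. The highest and the lowest Pax5 signal were both in wild-type samples of the D/F series, so the knockout values lay inside the wild-type range. Its difference was 0.16 (SE 0.17, interval -0.22 to 0.54, limma adjusted p = 0.878), with 0.07 among D/F titles and 0.24 among RO titles. Leaving out wild type replicate 3 gave 0.029, and leaving out wild type replicate 4 gave 0.32. Of 10 genes described as repressed by PAX5, 0 passed, 3 were higher and 7 lower on average in knockout samples, and their median of -0.114 was close to that of all genes. The 4 of smallest p were Sdc1, the plasma-cell syndecan, at -0.63 (SE 0.26), Cd28, a T-cell costimulatory receptor, at -0.44 (SE 0.22), Jchain, the joining chain of polymeric antibodies, at -0.69 (SE 0.40), and Prdm1, which encodes the plasma-cell regulator BLIMP1, at -0.29 (SE 0.18). Among 15 factors of other blood lineages 0 passed, with 14 lower on average and a median of -0.20, beside 14355 of 19937 genes that were lower. Relative to the median of all genes 12 lay below and 3 above. Tal1, a factor of erythroid cells, was the one higher on average, at 0.27 (SE 0.27), and was picked out after its value was seen. Gata3 had -0.30 (SE 0.20), Gata1 -0.33 (SE 0.22) and Cebpb -0.32 (SE 0.21). Many genes of both lists were dim: 7 of these 15, and 5 of the 10 described as repressed by PAX5, had a mean above the mean array median. Gata1, Cd28 and Prdm1 exceeded the array median in 0 of 8 samples and Jchain in 2, against 5 for Gata3, 7 for Sdc1 and 8 for Cebpb.

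The Ikaros family pair differed in spread. Ikzf1, which encodes Ikaros, had 11.58, 11.20, 11.16 and 11.53 in knockout samples, against 11.26, 11.43, 11.33 and 11.38 in wild-type samples. The wild-type values all lay inside the knockout range, and the difference was 0.01 (SE 0.14, interval -0.30 to 0.32, limma adjusted p = 0.982). Its sign changed with quantile normalization and in 3 of the 8 fits of 7 arrays (without knockout replicate 1 or 4 or wild type replicate 1), with a range of -0.068 to 0.091. Ikzf3, which encodes Aiolos and rises at the pre-B stage in normal development, had 9.37, 10.22, 10.44 and 10.69 in knockout samples, against 10.30, 10.36, 10.15 and 10.43 in wild-type samples. Knockout replicate 1 was the lowest and the other 7 lay between 10.15 and 10.69, and the SD was 0.57 in knockout samples, against 0.12 in wild-type samples. The Ikzf3 difference of -0.13 (SE 0.22, interval -0.61 to 0.36, adjusted p = 0.888) became 0.13 without knockout replicate 1 and 0.03 with arrays centred on their medians.

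Lef1, which carries Wnt and beta-catenin signals and is a factor of pro-B and pre-B cells, had 11.38, 11.05, 10.75 and 10.44 in knockout replicates 1 to 4, against 10.37, 10.92, 10.89 and 10.87 in wild-type replicates 1 to 4. In the RO samples both knockout values exceeded both wild-type values, by 0.57 on average, while in the D/F samples both knockout values were below both wild-type values, with a mean difference of -0.28. With array medians subtracted, the genotypes overlapped in the D/F samples. The limma interaction of genotype and title series was -0.85 (SE 0.33, unadjusted p = 0.0249, adjusted p = 0.716), and over all samples the genotype difference was 0.14 (SE 0.20, interval -0.30 to 0.59, adjusted p = 0.878). Without wild type replicate 1 the genotype difference was -0.05 and without knockout replicate 1 it was -0.0081.

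On the deposited values Bach2 was the member that followed the title series. Its signals in the D/F series were 10.34 and 10.43 in knockout samples and 10.07 and 10.16 in wild-type samples, and in the RO series they were 9.73 and 9.64 in knockout samples and 9.46 and 9.75 in wild-type samples. On these values all 4 D/F samples lay above all 4 RO samples. This held for 1 of the 10 members and for 0.978% of all genes, while 1.96% of genes separated the series in either direction. The D/F minus RO difference was 0.60 (SE 0.14, unadjusted p = 0.00102 in limma), and its adjusted p was 0.382, so it did not pass. It ran from 0.57 to 0.68 with 1 array left out, and was 0.60 after quantile normalization. With arrays centred on their medians it was 0.53 (limma unadjusted p = 0.0283, not passing the adjustment), and the series then overlapped. Wild type replicate 3 (10.07, array median 7.415) then lay below knockout replicate 1 (9.73, array median 7.006). Within each series the knockout mean was the higher, by 0.27 in D/F and 0.08 in RO samples, but the genotype difference of 0.18 (SE 0.14, interval -0.13 to 0.48) did not pass (adjusted p = 0.878). In all, 0 members passed between title series, against 0.0201% of all genes (4 genes, Ccn3, Olfr372, Olfr373 and Ralgps2, none a member), and at an unadjusted p under 0.05 it was 1 of 10, Bach2, against 3.12%. Leaving out wild type replicate 1 made that count 4 (Bach2, Ebf1, Irf8 and Lef1), and leaving out wild type replicate 3 made it 2 (Bach2 and Ikzf3). Of all 19937 genes, the count in those fits was 1159 and 725, against 622 with all 8 samples. The title series are sample names only, and what else differed between them is not given by the labels.

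**Figure D2:**
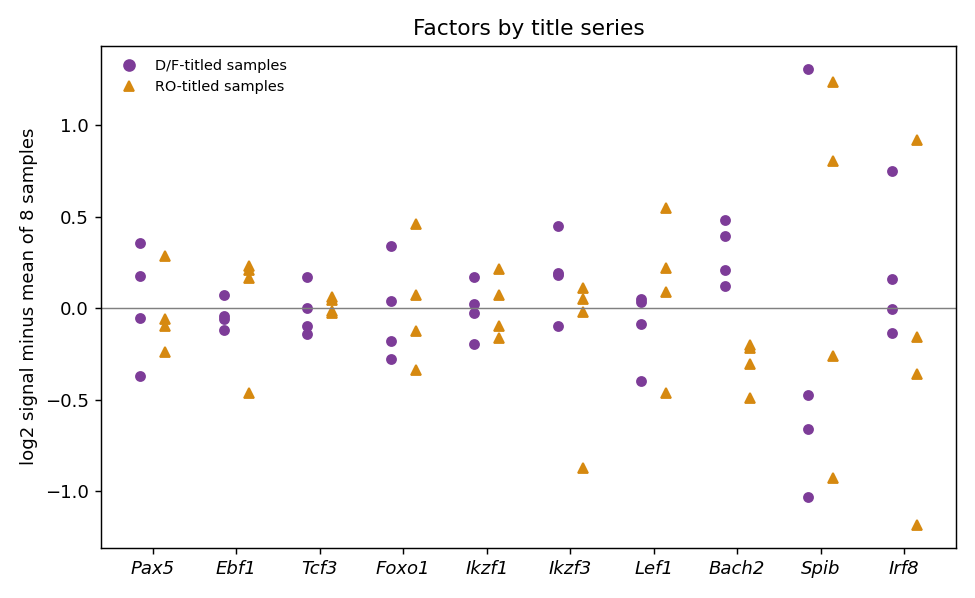
Log2 signal of each factor minus its mean over the 8 samples (vertical axis), with the 4 D/F-titled samples as purple circles on the left and the 4 RO-titled samples as orange triangles on the right of each gene name. The series separate for Bach2 on these deposited values, where all D/F samples lie above all RO samples.

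Spib and Irf8 carried the widest variation. Both encode factors that bind next to each other on composite ETS and IRF elements: SPIB is a lymphoid relative of PU.1, and IRF8 needs a partner such as PU.1 or SPIB at many of its sites and, with IRF4, promotes light-chain rearrangement in pre-B cells. Spib had log2 signals of 8.84, 11.00, 8.74 and 9.30 in knockout replicates 1 to 4, against 10.58, 9.51, 9.11 and 11.08 in wild-type replicates 1 to 4. The samples above 10 (knockout replicate 2 and wild-type replicates 1 and 4) came from both genotypes and both title series. The 8 samples spanned 2.34 log2 units, a 5.07-fold range, and the SD was 1.05 in knockout and 0.91 in wild-type samples (n = 4 each). The genotype difference of -0.60 (SE 0.50, interval -1.70 to 0.51, limma adjusted p = 0.878) ran from -1.13 without knockout replicate 2 to -0.11 without wild type replicate 4. Within the D/F samples the genotypes overlapped, with a mean difference of -1.08 (unadjusted p = 0.00324, adjusted p = 0.31 in limma on those samples alone), and within the RO samples it was -0.12. The D/F p-value rests on 2 arrays per genotype and on a variance moderated across genes. It does not measure the scatter of Spib itself, whose D/F wild-type values were 9.11 and 11.08.

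Irf8 had 11.20, 10.37, 11.55 and 12.31 in knockout replicates 1 to 4, against 12.48, 11.40, 11.42 and 11.72 in wild-type replicates 1 to 4. Knockout replicate 2 was the lowest sample and wild type replicate 1 the highest, a 4.30-fold range. In the RO series both knockout values lay below both wild-type values with a mean difference of -1.15, whereas in the D/F series the groups overlapped and the difference was 0.36. The limma interaction was 1.51 (SE 0.53, unadjusted p = 0.0164, adjusted p = 0.716). Irf8 and Lef1 were thus 2 of 10 members with an unadjusted interaction p under 0.05, against 5.38% of all genes, and 0 of 10 passed the adjustment, against 0.0301% (6 genes, Ctse, Emb, P2ry14, Pcbd1, S100a11 and Zfp938, none a member). The count of 2 depended on single samples, and each fit without 1 array leaves 1 sample of that genotype in its title series. Without wild type replicate 1 the interaction was 0.974 for Irf8 and -0.577 for Lef1. Without wild type replicate 2 it was 2.05 for Irf8 and -1.13 for Lef1. With array medians equalised Lef1 kept an unadjusted p under 0.05 and Irf8 did not, and after quantile normalization Irf8 did and Lef1 did not. Over all samples the Irf8 difference was -0.40 (SE 0.34, interval -1.14 to 0.35, adjusted p = 0.878), and leaving out 1 sample gave -0.70 (knockout replicate 4), -0.08 (knockout replicate 2) or -0.03 (wild type replicate 1). A range above 2 log2 units was found for 2 of 10 members and for 4.55% of the 11251 genes above the mean array median, and a range above 1 for 4 members, Spib, Irf8, Ikzf3 and Lef1, and 23.2% of those genes.

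**Figure D3:**
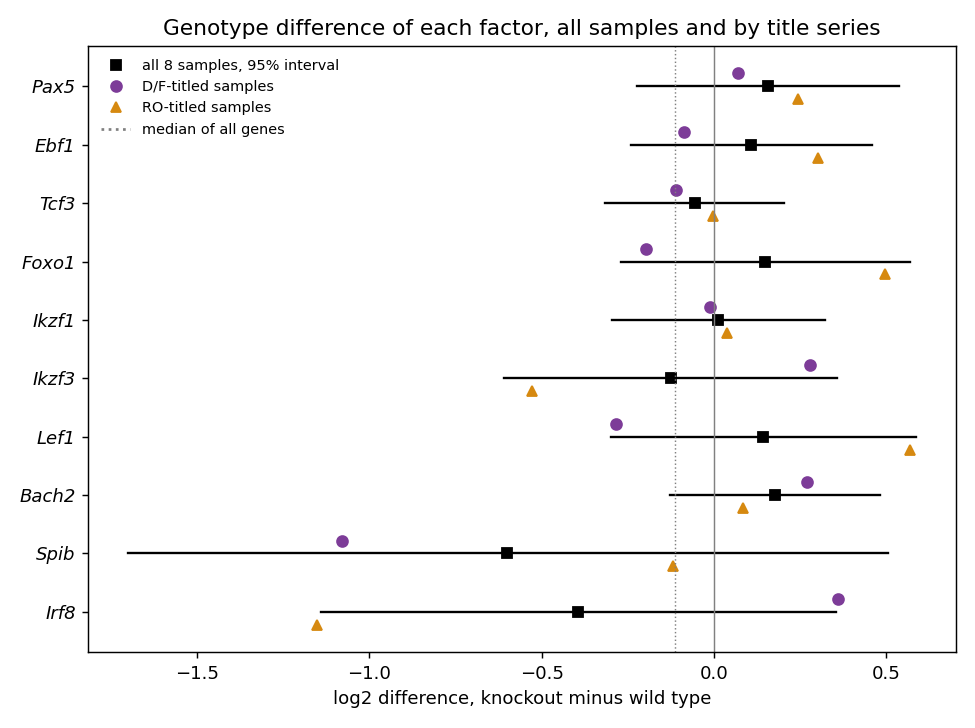
Log2 difference of each factor, knockout minus wild type (horizontal axis): black squares with 95% intervals are the limma fit of all 8 samples, purple circles the D/F-titled samples and orange triangles the RO-titled samples alone, and the dotted line is the median of all genes at -0.113. All 10 intervals include 0, and the title series lie on opposite sides of 0 for Ebf1, Foxo1, Ikzf1, Ikzf3, Lef1 and Irf8.

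Shown here are the sequences before the start sites of Spib and Irf8, the members of widest range, and of Bach2. The last followed the title series on the deposited values. The sequences are shown because the series concerns DNA methylation near a gene start, which in mammals falls mainly on CpG dinucleotides. They are the 250 bases before the RefSeq start on the gene's own strand (GRCm38.p6), with CpG in capitals. The Spib window, chr7:44532072-44532321 on the minus strand, held 2 CpG, the Irf8 window, chr8:120736108-120736357 on the plus strand and the first of 2 starts listed, held 29, and the Bach2 window, chr4:32417185-32417434 on the plus strand, held 7, beside a median of 6 over 32851 windows of the same length.
Spib: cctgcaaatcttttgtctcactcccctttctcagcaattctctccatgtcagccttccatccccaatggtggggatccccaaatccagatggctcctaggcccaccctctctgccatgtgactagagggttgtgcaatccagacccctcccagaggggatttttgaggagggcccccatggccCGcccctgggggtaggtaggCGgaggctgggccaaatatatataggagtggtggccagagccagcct
Irf8: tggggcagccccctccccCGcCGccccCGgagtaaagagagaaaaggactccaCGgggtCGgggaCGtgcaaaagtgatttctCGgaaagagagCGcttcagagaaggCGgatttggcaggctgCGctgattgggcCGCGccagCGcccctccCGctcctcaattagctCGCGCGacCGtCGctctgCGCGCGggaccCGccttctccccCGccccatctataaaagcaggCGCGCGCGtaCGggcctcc
Bach2: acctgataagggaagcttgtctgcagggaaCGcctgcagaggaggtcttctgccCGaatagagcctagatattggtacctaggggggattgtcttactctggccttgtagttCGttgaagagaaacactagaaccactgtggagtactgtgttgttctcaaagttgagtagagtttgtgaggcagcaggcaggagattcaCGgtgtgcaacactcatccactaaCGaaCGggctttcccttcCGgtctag
Spib lay at the 23.9 percentile of all windows in CpG content. The first Irf8 start lay at the 93.6 percentile, and its second start, chr8:120738389-120738638 on the plus strand, held 8 CpG and lay at the 58.3 percentile. Methylation was not measured in these files. The AP-1 element TGANTCA, where N is any base, was searched on both strands of the 15 windows of the 9 members in the table, and so was the related element TGACGTCA; 0 of 15 windows held either, against 6.75% and 1.55% of all windows. Of elements bound by the members themselves, the EBF1 palindrome, TCCC and GGGA around any pair of bases, was found in the window of Foxo1 as TCCCGAGGGA, 92 bases before the start, and in 0.779% of all windows. The E-box CAGGTG was found before the second Irf8 start, and in 17.2% of all windows, and the interferon-type element, GAAA repeated after any pair of bases, before 1 of the 2 Ebf1 starts, and in 2.98%. The Ikaros core TGGGAA was found before 1 start each of Irf8 and Ebf1, and in 21.6%, and the PU.1 and SPIB element GAGGAAGT in 0 member windows and in 2.44% of all. These motifs did not overlap each other in the member windows.

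Relatives of the 10 factors were compared next. Of 20 listed relatives 19 were measured and 0 passed between genotypes (7 higher and 12 lower on average, median -0.0913). Tcf7l1, a TCF/LEF repressor, had the smallest p, with a log2 difference of 0.60 (SE 0.27, unadjusted p = 0.0467 in limma, adjusted p = 0.878), and its signals were 8.04, 8.70, 8.74 and 8.07 in knockout samples, against 7.94, 7.52, 8.42 and 7.26 in wild-type samples. Tcf7l2, of the same family, had 0.45 (SE 0.34), the E protein gene Tcf12 0.23 (SE 0.17) and Ebf2 -0.32 (SE 0.21). Spi1, which encodes PU.1, spanned 0.43 log2 units over the 8 samples, while its relative Spib spanned 2.34. Irf4, the closest relative of Irf8, had 9.79, 10.82, 10.42 and 10.34 in knockout samples, against 10.71, 10.43, 9.97 and 9.81 in wild-type samples, and its overlapping groups differed by 0.11 (SE 0.23). Spi1 and Irf4 were picked out after their values were seen. Among the ID proteins, which block E proteins, 0 of 4 passed, with Id2 at 0.23 (SE 0.23), Id4 at -0.17 (SE 0.19), Id3 at -0.09 (SE 0.18) and Id1 at -0.05 (SE 0.19). Of 19 other regulators of early B cells 18 were measured and 0 passed (8 higher, 10 lower, median -0.0186). The 4 of smallest p were Klf2, a quiescence factor, at -0.38 (SE 0.23), Ets1 at -0.31 (SE 0.21), Zbtb17, which encodes MIZ1, at -0.19 (SE 0.16) and Mef2d at -0.14 (SE 0.12).

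Genes described as activated by the members were then set beside them. Of 25 listed, 21 were measured and 0 passed between genotypes, with 14 members of the list higher and 7 lower in knockout samples (median 0.061). Dntt, the terminal transferase, had 1.20 (SE 0.61), Cd55, a complement regulator, 0.43 (SE 0.23), Fcrla, an Fc receptor-like protein, -0.57 (SE 0.43) and Rag2 0.82 (SE 0.63), and each had an adjusted p of 0.878. The receptor chains Cd79a and Cd79b and the adaptor Blnk spanned 0.28, 0.46 and 0.77 log2 units over the 8 samples, while 8 of the 21 (Cd72, Blk, Fcrla, Cd22, Rag1, Rag2, Dntt and Il7r) spanned more than 2 log2 units between samples.

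Il7r, which encodes the interleukin-7 receptor alpha chain, had 12.40, 12.44, 9.75 and 8.96 in knockout replicates 1 to 4, against 8.92, 11.64, 11.39 and 10.13 in wild-type replicates 1 to 4. Rag1, which encodes a subunit of the V(D)J recombinase, had 9.88, 10.43, 8.06 and 8.00 in knockout samples, against 7.22, 9.80, 9.72 and 6.17 in wild-type samples. Rag2, the other subunit, had 9.09, 9.49, 6.63 and 6.91 in knockout samples, against 6.22, 8.63, 8.31 and 5.69 in wild-type samples. The same samples, the RO knockout pair (replicates 1 and 2) and wild-type replicates 2 and 3, were the 4 highest for all 3 genes, and they were the 4 lowest for Irf8 and the 4 highest for Lef1. Both genotypes and both title series are among them, but neither D/F knockout sample is. The border was narrow for Lef1, with 10.89 in wild type replicate 3 and 10.87 in wild type replicate 4, and for Irf8, with 11.55 in knockout replicate 3 and 11.42 in wild type replicate 3. Knockout minus wild type, mean Il7r was 2.14 among RO titles and -1.40 among D/F titles. Its limma interaction was -3.54 (SE 0.97, unadjusted p = 0.00405, adjusted p = 0.716). The unadjusted interaction p was 0.284 for Rag1 and 0.0926 for Rag2. Of the 21 measured targets, 5 had an unadjusted interaction p under 0.05, against 5.38% of all genes, and none passed the adjustment. The interaction of genotype and title series was tested gene by gene only. Whether the sample order shared by these genes reflects that interaction was not tested. Over the 8 samples Il7r and Irf8 ran in opposite directions (Pearson r = -0.893, Spearman rho = -0.976) and Il7r and Lef1 in the same direction (r = 0.912, rho = 0.976). Without the 2 samples farthest from the median of Irf8 or Lef1, r was -0.889 and 0.903. After quantile normalization of all arrays it was -0.884 and 0.921. Among all pairs compared, the Pearson r of largest size was negative, between Ebf1 and Fcrla (r = -0.927, rho = -0.833). Lef1 and Blk also ran in opposite directions (r = -0.918, rho = -0.857). These are descriptions, picked out after the values were seen from 80 pairs of a member and a target, over arrays that share a scaling. The pairs took in only the 8 targets that spanned more than 2 log2 units in these same samples. Fcrla exceeded the array median in 5 of 8 samples. Rag1 and Rag2 had smaller Pearson coefficients with Irf8 (r = -0.727 and -0.780) and with Lef1 (r = 0.610 and 0.704). Their samples fell into separate clusters, and Il7r split at the same samples. Spib, which varied as widely as Irf8, did not follow this order (r = -0.0514 with Il7r), nor did Pax5 (-0.00477). Foxo1, whose protein activates Il7r and the Rag genes, spanned 0.79 log2 units and Il7r 3.51. Foxo1 had r = 0.524 and rho = 0.738 with Il7r, and its part in the Il7r pattern was not tested. Ebf1 had r = 0.800 (rho = 0.857) with Il7r and Ikzf3 -0.670 (rho = -0.619). The B-cell receptor kinase gene Blk had 6.64, 6.84, 8.59 and 9.55 in knockout samples, against 9.34, 8.33, 8.63 and 7.73 in wild-type samples, so the RO knockout samples, the lowest for Irf8, were the lowest for Blk as well. Lyz2 had 10.63, 10.64, 9.24 and 7.44 in knockout samples, against 8.33, 8.66, 9.93 and 8.35 in wild-type samples, and its part in the Irf8 and Il7r pattern was not tested.

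**Figure D4:**
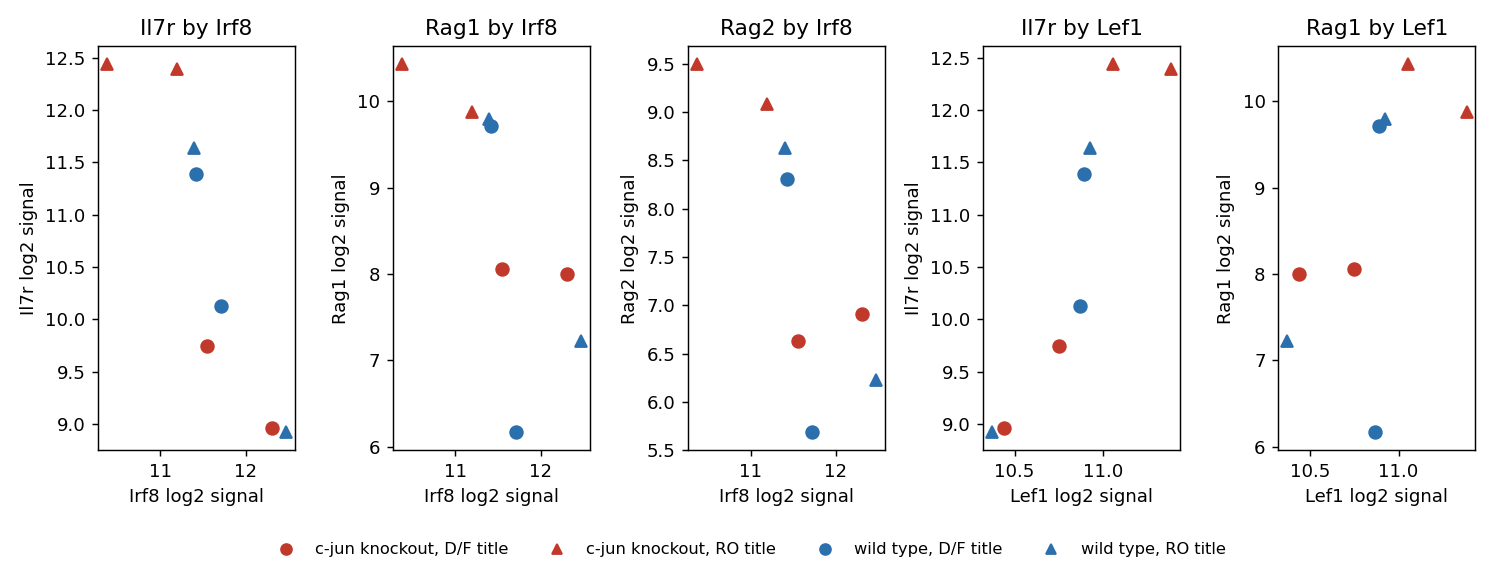
Log2 signals of Il7r, Rag1 and Rag2 against Irf8 (left 3 panels) and of Il7r and Rag1 against Lef1 (right 2 panels), 1 point per sample, with knockout in red, wild type in blue, circles for D/F and triangles for RO titles. The 4 samples of lowest Irf8 signal (10.37 to 11.42) have the 4 highest Il7r signals (11.39 to 12.44).

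The genes whose profile was most like that of the 3 members of largest SD were sought among the 11251 genes above the mean array median, after centring each array on its median. Nearest to Spib were Abca3 (Pearson r = 0.987 over 8 arrays), Ralgds (0.960) and Efhd2 (0.954), nearest to Irf8 were Tbc1d16 (0.953), Pax7 (0.936) and Cdc42bpg (0.931), and nearest to Lef1 were Txnl1 (0.992), Klhl9 (0.986) and Sfswap (0.985). Tbc1d16 had 8.05, 7.65, 8.38 and 9.35 in knockout samples, against 9.33, 8.34, 8.49 and 8.42 in wild-type samples, so its highest signals, like those of Irf8, were in knockout replicate 4 and wild type replicate 1. These likenesses depended on the scale: with the deposited values r was 0.965 for Tbc1d16 and 0.984 for Txnl1, but 0.860 for Abca3, 0.741 for Ralgds, 0.694 for Efhd2, 0.843 for Pax7, 0.902 for Cdc42bpg, 0.850 for Sfswap and -0.415 for Klhl9. On that scale other genes were nearest, Trim26, Pacsin2 and Hoxb6 to Spib and Hrob, BC003965 and Itgb7 to Irf8, while Lef1 kept Txnl1 beside Sesn1 and Rab18. The centred Lef1 values themselves had r = -0.846 with the array medians.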

How the data were processed

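Expression was measured in 8 samples, 4 per genotype, on 1 Affymetrix MoGene 1.0 ST array each. The authors deposited log2 values for 34760 probe sets; the log base was read from the values, since after conversion to the linear scale every array had a mean of 500 with 2% trimmed from each end. MAS5 is named as software, per the submitters' processing notes, and no version, settings or genome build is stated there. Arrays of this type lack the mismatch probes that MAS5 ordinarily uses, so how probe signals were summarised into the deposited values is unclear. No detection calls were used. Platform annotation gave 1 symbol to 21640 probe sets, several to 1321 and none to 11799. Per gene the single-symbol probe set of highest mean was kept (19937 genes), and the deposited values went into limma 3.58.1 (R 4.3.3; lmFit and eBayes with trend), with genotype and title series as terms (5 residual degrees of freedom), and their product for the interaction. P-values were adjusted by Benjamini-Hochberg over all genes at 0.05. Groups came from the genotype label and replicates were numbered in order of deposit. Fits were tested on simulated data. The named genes were the 10 members, Jun, genes that passed, up to 4 genes of smallest p in each list, and the 3 genes most like each of the 3 members of largest SD. The members and lists were chosen with earlier results of these data known. Promoter sequences are from RefSeq. Alternatives were genotype alone, quantile normalization, median centring, a filter on dim genes, probe-set means, no trend, each title series alone and each array left out.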

Additional observations from a re-analysis of the deposited data

Results flagged for a closer look

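Of 68 groups of 4 samples examined among the members, Jun and the genes named from the lists, 4 held 1 sample far from the other 3 by Dixon's ratio of gap to range, past a 95% critical value that chance passes in about 1 of 20 groups. Lef1 in wild-type samples had a ratio of 0.900, with 10.37 in wild type replicate 1 and 10.87 to 10.92 in the other samples. Fcrla in wild-type samples had 0.904, with 9.24 in the same replicate and 7.10 to 7.30 in the others. Jun had 0.916 in knockout samples, with 6.46 in replicate 2, and 0.963 in wild-type samples, with 10.55 in replicate 3. For Ikzf3, Lef1 and Fcrla both knockout samples lay on one side of both wild-type samples in one title series and on the other side in the other. This was on the deposited values. With array medians subtracted, the genotypes overlapped for Ikzf3 in the RO samples and for Lef1 in the D/F samples, while Fcrla kept the pattern. The genotype difference in D/F minus that in RO samples was 0.808 for Ikzf3 (limma interaction, unadjusted p = 0.0604), -0.852 for Lef1 (unadjusted p = 0.0249) and 1.84 for Fcrla (unadjusted p = 0.0210), and the adjusted p was 0.716 for each.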

How the results depend on the processing

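Members called between genotypes stayed at 0 under all 16 alternatives. The number of all genes called, 1, became 32 in the RO-titled and 79 in the D/F-titled samples alone, and ran from 0 to 2 with 1 array left out. For D/F against RO it was 4, became 0 when only genes above the mean array median were tested, where fewer genes were tested, and ran from 0 to 18 with 1 array left out. For the interaction it was 6, became 2 with quantile normalization and 0 with genes above the mean array median only, and ran from 6 to 38 with 1 array left out; the cause was not tested. The count at an unadjusted p under 0.05 between genotypes was 449, and it became 2450 in the RO-titled and 757 in the D/F-titled samples alone and 677 with quantile normalization; it was 257 when knockout replicate 2 was left out, 291 for wild type replicate 1 and 4863 for wild type replicate 4. Directions of single members, none of which passed, reversed as follows. In the D/F-titled samples alone the genotype difference was -0.0858 for Ebf1, -0.0112 for Ikzf1, 0.279 for Ikzf3, -0.197 for Foxo1, -0.283 for Lef1 and 0.360 for Irf8. With arrays centred on their medians it was 0.0969 for Tcf3 and 0.0281 for Ikzf3, and with quantile normalization -0.0319 for Ikzf1. With 1 array left out it ran from -0.0694 to 0.209 for Ebf1, from -0.0992 to 0.00772 for Tcf3, from -0.0679 to 0.0909 for Ikzf1, from -0.262 to 0.126 for Ikzf3 and from -0.0522 to 0.290 for Lef1. Pax5, Spib and Bach2 kept their direction in all 16. Between title series, Pax5 was -0.0234 after median centring, and Tcf3 was 0.0150 and Ikzf1 0.00917 with quantile normalization. With 1 array left out it ran from -0.107 to 0.184 for Pax5, -0.250 to 0.0279 for Ebf1, -0.0982 to 0.00875 for Tcf3, -0.0868 to 0.0653 for Ikzf1, -0.210 to 0.111 for Foxo1 and -0.916 to 0.102 for Spib. No paired analysis was possible because the labels carry no replicate numbers. The likeness on deposited values was added after seeing the data. With 4 arrays per genotype, the 95% interval of the Spib difference spans -1.70 to 0.51.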
